A study of Mus musculus with 2 samples.

Results

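Heat shock proteins and chaperonins fold and refold other proteins in the cytosol and in mitochondria. The 40 genes described here were taken by symbol. They encode the HSP70, HSP110, HSP90 and small heat shock proteins, their co-chaperones, the mitochondrial HSP60 and HSP10 chaperonin, the cytosolic chaperonin CCT and the heat shock factors HSF1 and HSF2. All 40 were among the 23284 genes listed in each library, and 36 of them reached 1 FPKM in at least 1 library, as did 11504 genes in all. FPKM counts fragments per kilobase of transcript relative to library depth.

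HSP70 proteins bind unfolded stretches of newly made or damaged proteins, J proteins bring them their clients, and HSP110 and other exchange factors release the bound nucleotide so that the client is let go. HSP90 completes the folding of kinases and steroid receptors with a set of co-chaperones, and the ring-shaped chaperonins fold proteins inside a closed chamber. HSF1 is the transcription factor that raises many of these genes under heat or other protein stress, by binding repeats of a short unit called the heat shock element, while several members are made constantly in any growing cell.

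Messenger RNA was measured in 1 library from small intestinal epithelia of miR-215-/- mice and in 1 library from miR-215+/+ mice, here called the knockout and the wild-type library. The strain, age and sex of the animals, the number pooled for a library and the extent of the deleted sequence are not stated in the sources at hand. With 1 library per genotype no difference has a replicate check and no test was made. A gene called higher or lower was so in the knockout library, set against the wild-type one. From the steps between low values, 1 FPKM over a 2 kb transcript rested on about 18.1 fragments in the knockout library and 17.5 in the wild-type library. Fold changes are ratios of FPKM, knockout over wild type, with exact 95% Clopper-Pearson intervals built from the estimated fragment numbers, which cover counting error only. The log2 ratio used to count genes is log2(knockout FPKM + 1) minus log2(wild-type FPKM + 1), which understates the difference of low genes. The limits of 1.5-fold and 2-fold on this scale are rules of size.

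The targeted gene could not serve as a check of the labels. Mir215 had a value of 0 in the knockout library, against 137 FPKM in the wild-type library. The gene is 112 nt long, and the wild-type value was the lowest that any of 70 genes of like length showed above 0. Mir192, which encodes a microRNA with the same seed, had 387 FPKM in the knockout library, against a listed 0 in the wild-type library. These libraries of polyadenylated RNA thus did not resolve the loss of the microRNA. The mature sequences, from RefSeq on GRCm38.p6, are shown because the seed (bases 2 to 8, in capitals) is used below.
mmu-miR-215-5p (chr1:185313610-185313630, plus strand): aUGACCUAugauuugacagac
mmu-miR-192-5p (chr19:6264857-6264877, plus strand): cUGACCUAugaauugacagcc

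The label of the tissue was compared with marker genes. All 10 epithelial markers were present, with a summed 26802 FPKM in the knockout library and 29196 FPKM in the wild-type library and a median log2 ratio of -0.03, which turned to 0.10 after scaling to equal sums. Of 16 smooth muscle and fibroblast markers, 13 reached 1 FPKM, and 12 of these were at least 1.5-fold higher in the knockout library. Their sum over all 16 was 67.3 FPKM in the knockout library and 22.3 FPKM in the wild-type library. All 4 endothelial markers were low, with sums of 5.79 FPKM in the knockout library and 1.35 FPKM in the wild-type library, and Kdr had a listed value of 0 in the wild-type one. Of the 8 macrophage and dendritic cell markers, 7 lay above 0 and 3 were at least 1.5-fold higher, with a median log2 ratio of 0.53 and sums of 91.7 FPKM in the knockout library and 71.4 FPKM in the wild-type library. T cell markers summed to 394 FPKM in the knockout library and 376 FPKM in the wild-type library, and B and plasma cell markers to 89.0 FPKM in the knockout library and 59.1 FPKM in the wild-type library. By these markers each library was mainly epithelial, with higher levels of muscle, stromal, endothelial and most macrophage and dendritic cell markers in the knockout library. In bulk samples more cells of a type and more RNA per cell cannot be told apart.

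The summed level of the chaperone genes was higher in the knockout library, at 2784 FPKM against 2112 FPKM in the wild-type library, which was 0.407% of all FPKM in the knockout library and 0.281% in the wild-type library. Hspa8, the main HSP70, made up 35.5% of the members' sum in the knockout library and 29.6% in the wild-type library, and without it the sums were 1795 FPKM in the knockout library and 1487 FPKM in the wild-type library.

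Of the 36 measured members, 25 had a log2 ratio above 0 and 11 had one below, with a median of 0.17. Over all 11504 genes tested the median was -0.05 and 44.0% lay above 0. The balance of all genes depended on the scaling: 556 were at least 1.5-fold higher and 835 lower as deposited, but 905 higher and 569 lower, with a median of 0.07, once both libraries were scaled to equal sums. The members' median was then 0.30, with 29 above 0 and 7 below. At least 1.5-fold higher were 7 members, or 19.4% (Hsph1, Hsp90aa1, Hspd1, Hspa1b, Hsf1, Hspa8 and Hspe1), against 4.83% of all genes tested. At least 2-fold higher was Hsph1, 1 of 36, against 1.34% of all genes. None of the 36 was at least 1.5-fold lower, against 7.26% of all genes, and none was at least 2-fold lower, against 2.04%. Just inside the 1.5-fold limit lay Hspe1 with a log2 ratio of 0.59, and just outside it Stip1 with 0.58. The counting interval of the fold lay above 1 for 18 measured members and below 1 for 4, and held 1 for the other 14, as deposited. Scaling to equal sums was applied to these intervals only after seeing the data. The interval then lay above 1 for 23, below 1 for none and held 1 for 13. These counts have no share over all genes beside them, and intervals are narrow where fragments are many. They therefore describe the members only and do not set them apart from other genes. The intervals given for single genes are those of the values as deposited.

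**Figure D1:**
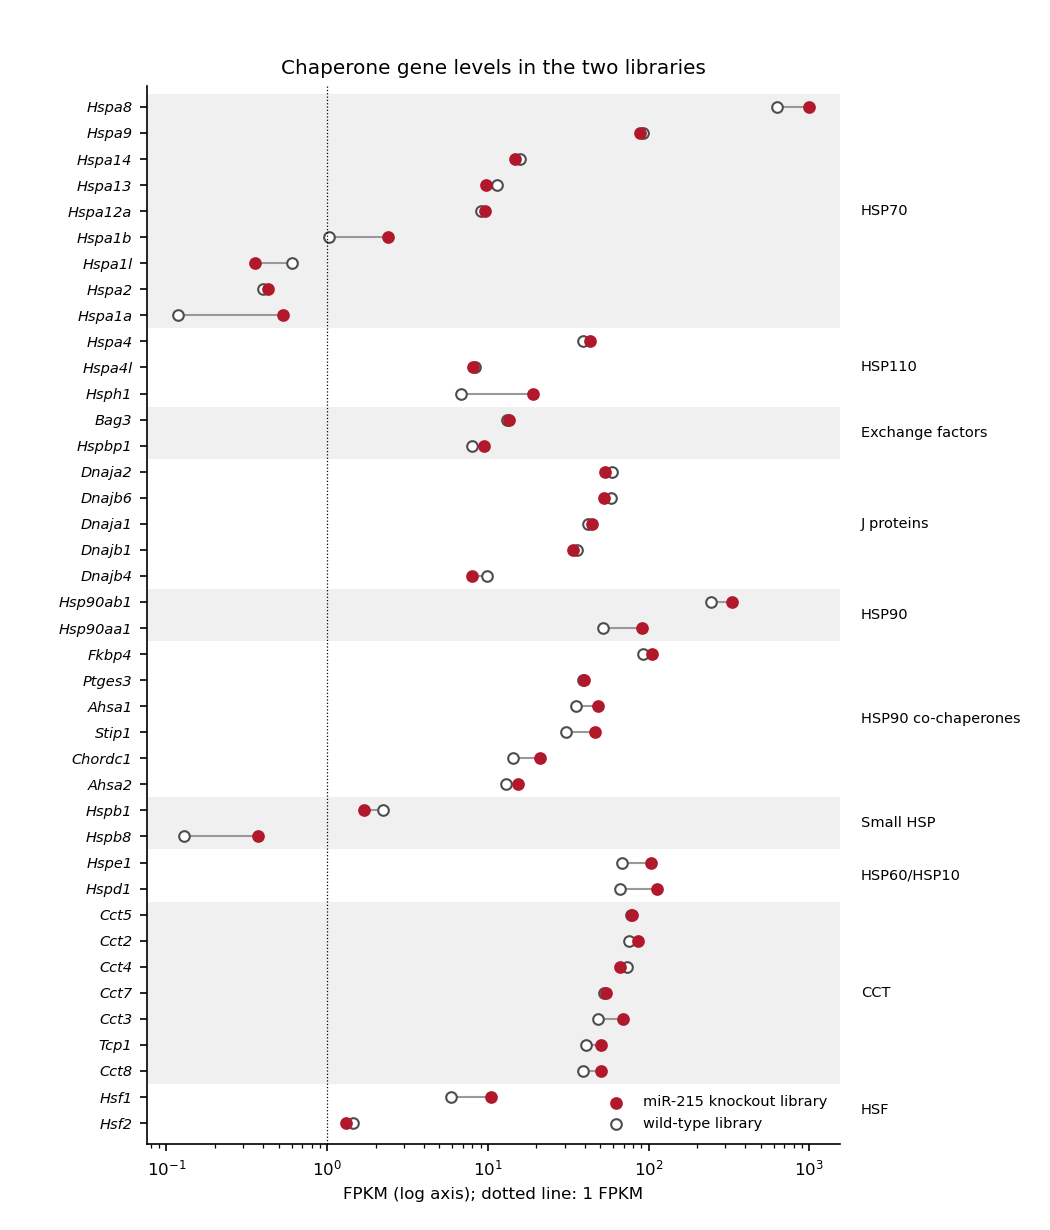
FPKM (log axis) of all 40 chaperone genes in the knockout library (filled) and the wild-type library (open), grouped by role and sorted by level. Hspa8 and Hsp90ab1 are the highest members in both libraries, Hsph1 has the widest gap among members above 5 FPKM, and Hspa1a, Hspa1l, Hspa2 and Hspb8 lie under 1 FPKM (dotted line) in both.

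The members were also split by their known control. The grouping of 17 members as induced by HSF1 came from textbook knowledge, but was drawn with earlier results of these data known. It had 16 measured genes with a median log2 ratio of 0.49. Of these, 12 lay above 0 and 6 were at least 1.5-fold higher. The remaining 23 members, with 20 measured, had a median of 0.07, with 13 above 0 and 1 at least 1.5-fold higher (Hsf1 itself). Hspa8, which is also made without stress, was counted in the HSF1-induced list. Placed with the other members instead, a choice made after seeing the data, it left 5 of 15 at least 1.5-fold higher with a median of 0.44 in the HSF1-induced list, against 2 of 21 with a median of 0.09 in the other members. The HSF1-induced list was not uniform: Hsph1, Hspa1b, Hsp90aa1, Hspd1, Hspa8 and Hspe1 passed the 1.5-fold limit, whereas Hspb1, Dnajb1, Dnajb4 and Hspa4l lay below 0 as deposited, of which Dnajb1 and Hspa4l lay above 0 after scaling to equal sums.

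**Figure D2:**
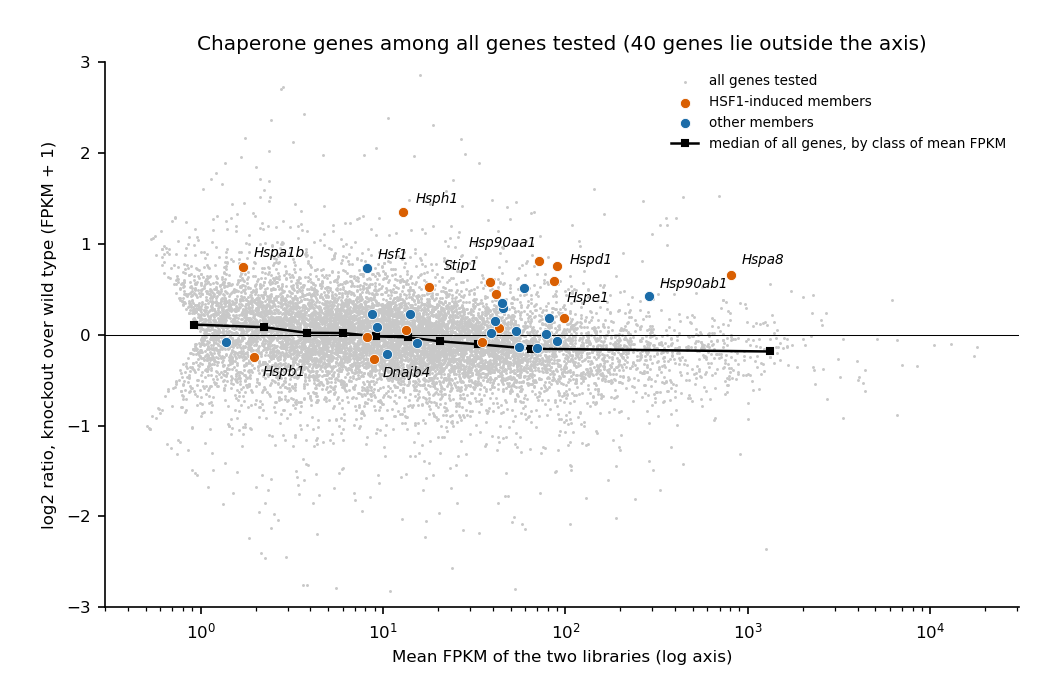
Log2 ratio, knockout over wild type (FPKM + 1), against mean FPKM (log axis) for the 11504 genes tested, with HSF1-induced members in orange and other members in blue; 40 genes lie outside the axis. Squares are medians of all genes in 10 equal classes of mean FPKM, running from 0.11 in the lowest class to -0.19 in the highest, and Hspa8, Hsp90ab1, Hspd1 and Hsp90aa1 lie above that line.

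HSP110, the nucleotide exchange partner of HSP70, held the highest log2 ratio of all members. Hsph1, its heat-inducible gene (chr5:149614287-149636376, minus strand, mm10), was at 19 FPKM in the knockout library and 6.84 FPKM in the wild-type library, on about 637 and 221 fragments. The fold was 2.78 (2.38 to 3.25), the log2 ratio was 1.35, and 99.4% of the genes tested had a lower one. The other HSP110 genes did not show this gap. Hspa4, which is made constantly, was at 43.4 FPKM in the knockout library and 38.9 FPKM in the wild-type library (fold 1.11, 1.04 to 1.19). Hspa4l was at 8.14 FPKM in the knockout library and 8.30 FPKM in the wild-type library (0.981, 0.885 to 1.09). Within this family of 3, Hsph1 was thus the lowest in the wild-type library and stood above Hspa4l in the knockout library.

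Among the HSP70 genes the abundant Hspa8 and the stress-induced Hspa1b were higher. Hspa8 encodes HSC70, the HSP70 of unstressed cells (chr9:40800984-40810087, plus strand). It was at 989 FPKM in the knockout library and 626 FPKM in the wild-type library, a fold of 1.58 (1.55 to 1.62), and was the gene of rank 87 in the knockout library and of rank 199 in the wild-type library. Hspa1b, a gene of the stress-induced HSP70 (chr17:34956436-34959238, minus strand), was low, at 2.39 FPKM in the knockout library and 1.02 FPKM in the wild-type library. About 63 fragments in the knockout library and 26 in the wild-type library lay behind these values, and the fold was 2.33 (1.46 to 3.84). Its near-identical neighbour Hspa1a was at 0.534 FPKM in the knockout library and 0.119 FPKM in the wild-type library, on about 15 and 3 fragments (4.49, 1.36 to 26). How fragments shared by this pair were assigned is not stated, so the split between them is uncertain. Both lay higher in the knockout library, and neither reached 3 FPKM.

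The remaining HSP70 genes differed little. Hspa9, the mitochondrial HSP70 mortalin, was at 87.9 FPKM in the knockout library and 92.5 FPKM in the wild-type library (fold 0.95, 0.899 to 1.0). Hspa14, which works at the ribosome, was at 14.9 FPKM in the knockout library and 15.9 FPKM in the wild-type library (0.936, 0.777 to 1.12). Hspa12a, a distant relative, was at 9.64 FPKM in the knockout library and 9.0 FPKM in the wild-type library (1.07, 0.946 to 1.21). These 3 intervals held 1. Hspa13, whose product is found with microsomes, was lower beyond counting error as deposited, at 9.68 FPKM in the knockout library and 11.4 FPKM in the wild-type library (0.848, 0.728 to 0.990). The interval held 1 with its shortest annotated transcript (0.710 to 1.01) and after scaling to equal sums (0.799 to 1.09). Hspa1l and Hspa2, known best from the testis, stayed under 1 FPKM. Hspa1l was at 0.358 FPKM in the knockout library and 0.604 FPKM in the wild-type library (0.593, 0.213 to 1.54), and Hspa2 at 0.427 FPKM in the knockout library and 0.399 FPKM in the wild-type library (1.07, 0.391 to 2.98).

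The J proteins differed less than Hspa8. All 5 J proteins were measured, 1 of them above 0 and 4 below, with a median log2 ratio of -0.14. That median was -0.01 after scaling both libraries to equal sums and 0.02 after subtracting the median of all genes of like mean FPKM, so its sign depended on the scaling. Dnajb1, the heat-inducible HSP40, was at 33.7 FPKM in the knockout library and 35.8 FPKM in the wild-type library (fold 0.942, 0.859 to 1.03). Dnaja1 was at 44.5 FPKM in the knockout library and 42.2 FPKM in the wild-type library (1.05, 0.986 to 1.12). Its relative Dnaja2 was at 53.7 FPKM in the knockout library and 59.2 FPKM in the wild-type library (0.907, 0.844 to 0.975). The interval of Dnaja2 lay below 1 as deposited and held 1 after scaling to equal sums (0.926 to 1.07). Dnajb6, known for holding back aggregates of polyglutamine proteins, was at 52.8 FPKM in the knockout library and 58.2 FPKM in the wild-type library (0.908, 0.820 to 1.0). With its longest transcript the interval lay below 1 (0.844 to 0.976). Dnajb4 had the lowest log2 ratio of all measured members, -0.26, at 8.02 FPKM in the knockout library and 9.83 FPKM in the wild-type library (0.816, 0.667 to 0.999). After scaling to equal sums its interval held 1 (0.732 to 1.10).

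The exchange factors Bag3 and Hspbp1 also differed little. Bag3, an HSF1 target that links HSP70 to autophagy, was at 13.6 FPKM in the knockout library and 13.1 FPKM in the wild-type library (fold 1.04, 0.881 to 1.21). Hspbp1 was at 9.49 FPKM in the knockout library and 7.93 FPKM in the wild-type library (1.2, 0.922 to 1.56). Both intervals held 1.

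Both cytosolic HSP90 genes were higher in the knockout library, the inducible one by more. Hsp90aa1, the stress-induced form (chr12:110690605-110702728, minus strand), was at 91.7 FPKM in the knockout library and 51.9 FPKM in the wild-type library, a fold of 1.77 (1.66 to 1.88). Hsp90ab1, the constitutive form, was at 329.7 FPKM in the knockout library and 245 FPKM in the wild-type library (1.34, 1.30 to 1.39). In FPKM, which is per length, the level of the inducible form was 0.278 times that of the constitutive one in the knockout library and 0.211 times in the wild-type library. The intervals of the 2 folds did not overlap.

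All 6 HSP90 co-chaperone genes lay above 0, with a median log2 ratio of 0.34. None passed the 1.5-fold limit on the log2 scale with 1 FPKM added. With 0.1 FPKM added 1 passed it, and after scaling to equal sums 2 did. Stip1, which hands clients from HSP70 to HSP90, was at 46.3 FPKM in the knockout library and 30.7 FPKM in the wild-type library (fold 1.51, 1.36 to 1.68). Chordc1, a heat-inducible HSP90 partner, was at 21.2 FPKM in the knockout library and 14.4 FPKM in the wild-type library (1.47, 1.34 to 1.61). Ahsa1, the activator of the HSP90 ATPase, was at 48.4 FPKM in the knockout library and 35.3 FPKM in the wild-type library (1.37, 1.2 to 1.56). The other 3 had smaller folds. Ahsa2, a relative of Ahsa1, was at 15.4 FPKM in the knockout library and 12.9 FPKM in the wild-type library (1.19, 1.04 to 1.36). Fkbp4, an immunophilin of steroid receptor complexes, was at 104.8 FPKM in the knockout library and 92.1 FPKM in the wild-type library (1.14, 1.07 to 1.21). Ptges3, a co-chaperone that stabilises the closed form of HSP90, was at 39.4 FPKM in the knockout library and 38.9 FPKM in the wild-type library (1.01, 0.910 to 1.13), and its interval alone among the 6 held 1.

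Both genes of the mitochondrial chaperonin were higher in the knockout library. Hspd1, HSP60 (chr1:55077835-55088243, minus strand), was at 112.7 FPKM in the knockout library and 66.3 FPKM in the wild-type library, a fold of 1.70 (1.59 to 1.81). Hspe1, the HSP10 lid of the same chamber (chr1:55088132-55091307, plus strand), was at 103.9 FPKM in the knockout library and 68.7 FPKM in the wild-type library, a fold of 1.51 (1.33 to 1.73). Their levels stayed near each other, with an Hspd1 to Hspe1 ratio of 1.08 in the knockout library and 0.965 in the wild-type library. The genes lie head to head and their annotated exons overlap on opposite strands; the kit keeps strand, but whether the counting used it is not stated. The annotation also names 5 pseudogenes of Hspd1 and 6 of Hspe1, none of them listed in the libraries, so fragments shared with these copies make both levels uncertain. Hspa9, the mitochondrial HSP70, had no such gap.

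The 7 CCT subunits listed among the members showed a smaller difference, with 6 above 0 and a median log2 ratio of 0.18. Their levels ran from 50.3 to 86 FPKM in the knockout library and from 39.3 to 78.3 FPKM in the wild-type library. Cct3 was at 69.7 FPKM in the knockout library and 48.4 FPKM in the wild-type library (fold 1.44, 1.32 to 1.57). Cct8 was at 50.4 FPKM in the knockout library and 39.3 FPKM in the wild-type library (1.28, 1.17 to 1.40), and Tcp1 at 50.3 FPKM in the knockout library and 40.7 FPKM in the wild-type library (1.24, 1.12 to 1.36). Cct3, with the highest fold of the 7, thus stood in the middle of the range of levels. Cct2 was at 86 FPKM in the knockout library and 75.8 FPKM in the wild-type library (1.13, 1.05 to 1.22). Cct7, at 54.6 FPKM in the knockout library and 53.0 FPKM in the wild-type library, and Cct5, at 78.4 FPKM in the knockout library and 78.3 FPKM in the wild-type library, were within counting error. Cct4 alone lay below 0 as deposited, though above it (0.01) after centring by mean FPKM, at 66.3 FPKM in the knockout library and 73.3 FPKM in the wild-type library (0.903, 0.842 to 0.970). Its interval held 1 after scaling to equal sums (0.925 to 1.06). The subunits, which share 1 complex, were closer to each other in the knockout library, where the highest was 1.71 times the lowest, against 1.99 times in the wild-type library.

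Small heat shock protein genes were low. Hspb1, HSP27, was at 1.71 FPKM in the knockout library and 2.21 FPKM in the wild-type library on about 12 and 15 fragments (fold 0.771, 0.330 to 1.76). Hspb8 was at 0.370 FPKM in the knockout library and 0.128 FPKM in the wild-type library, on about 6 and 2 fragments (2.89, 0.517 to 29.3). At this depth no difference of either gene was detectable. The muscle genes of the family were low as well, with Cryab at 0.708 FPKM in the knockout library and 0.210 FPKM in the wild-type library, and Hspb6 at 2.39 FPKM in the knockout library and 1.93 FPKM in the wild-type library, in libraries whose smooth muscle markers differed.

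Of the heat shock factors, Hsf1 was higher (chr15:76477422-76501913, plus strand). It was at 10.5 FPKM in the knockout library and 5.89 FPKM in the wild-type library, on about 192 and 104 fragments, a fold of 1.78 (1.39 to 2.28). Hsf2, which acts with HSF1 and in development, was at 1.31 FPKM in the knockout library and 1.44 FPKM in the wild-type library (0.906, 0.542 to 1.51). HSF1 is known to be controlled mostly as a protein, and its activity was not measured here.

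**Figure D3:**
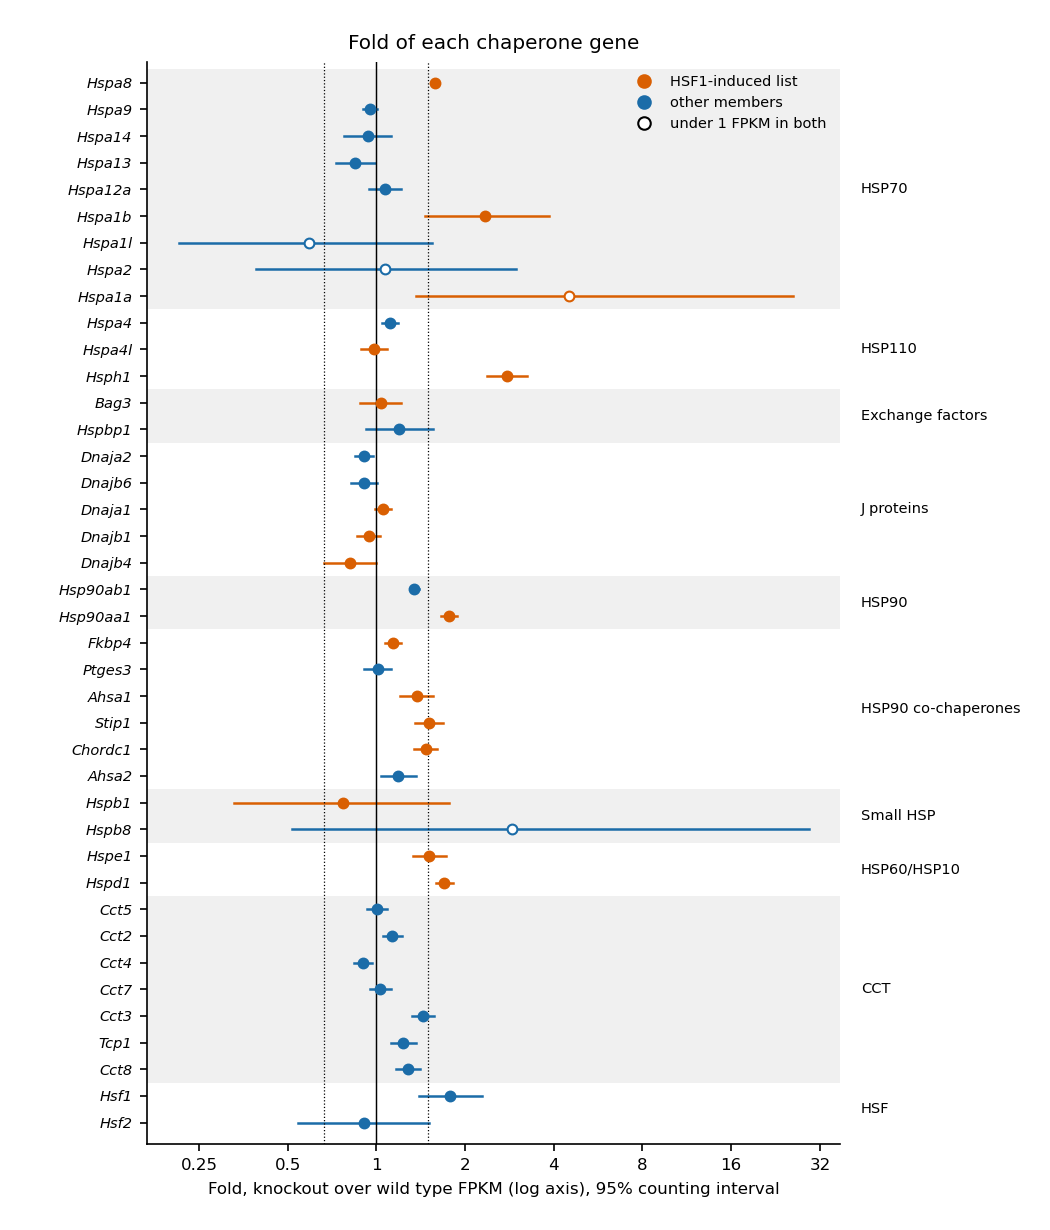
FPKM fold, knockout over wild type (log axis), of all 40 members with the 95% counting interval; orange, HSF1-induced list; blue, other members; open symbols, under 1 FPKM in both libraries; dotted lines, 1.5-fold. The intervals of Hsph1, Hsp90aa1, Hspd1 and Hspa8 lie wholly above the 1.5-fold line, and no interval of a measured member lies wholly below the line on the left.

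Promoter sequence was compared with these folds. Windows from 250 bases before to 50 after the annotated start were available for 33 members (43 windows) from RefSeq on GRCm38.p6; Hspa8, Hspa9, Hspa13, Hsp90aa1, Hsp90ab1, Cct4 and Hsf1 had none. A pair of heat shock element units was taken as GAANNTTC or TTCNNGAA, each of which reads the same on both strands, and a triple as 3 alternating units, that is, overlapping pairs. A pair was found in 39.5% of the members' windows and in 15.1% of all 32851 windows, and a triple in 16.3% of the members' windows and 0.603% of all. Windows of 1 gene can overlap. Counted by gene, a pair was in 11 of the 15 HSF1-induced members with a window, against 4 of the 18 other members. A triple was in 4 of the 15 against 1 of the 18. The HSF1-induced list was drawn from textbook knowledge of control by HSF1, which binds these units. More matches in it were therefore likely beforehand and are no independent support for the grouping. Over all 27025 genes with a window, 17.0% had a pair and 0.662% had a triple. The pair share of the other members, 22.2%, was near that of all genes. Of the windows with a triple, 4 are printed with the units in capitals, 1 for each gene with a triple except Hspd1. Hspd1, counted beside Hspe1 in the 4 of the 15, has the same triple because its second window shares 285 bases with that of Hspe1.
Hsph1 (chr5:149636287-149636586, minus strand): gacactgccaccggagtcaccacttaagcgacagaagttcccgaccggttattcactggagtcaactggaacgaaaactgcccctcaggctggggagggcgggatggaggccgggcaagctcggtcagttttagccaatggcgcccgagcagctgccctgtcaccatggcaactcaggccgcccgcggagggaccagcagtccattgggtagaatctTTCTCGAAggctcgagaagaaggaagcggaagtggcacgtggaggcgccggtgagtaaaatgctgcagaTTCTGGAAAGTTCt
Hspe1 (chr1:55087898-55088197, plus strand): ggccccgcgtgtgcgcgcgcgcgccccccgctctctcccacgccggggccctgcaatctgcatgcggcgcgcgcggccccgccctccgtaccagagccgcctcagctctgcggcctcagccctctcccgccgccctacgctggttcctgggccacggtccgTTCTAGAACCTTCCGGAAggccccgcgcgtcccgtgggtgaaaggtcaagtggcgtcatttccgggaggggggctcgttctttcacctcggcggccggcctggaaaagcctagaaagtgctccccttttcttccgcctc
Chordc1 (chr9:18292017-18292316, plus strand): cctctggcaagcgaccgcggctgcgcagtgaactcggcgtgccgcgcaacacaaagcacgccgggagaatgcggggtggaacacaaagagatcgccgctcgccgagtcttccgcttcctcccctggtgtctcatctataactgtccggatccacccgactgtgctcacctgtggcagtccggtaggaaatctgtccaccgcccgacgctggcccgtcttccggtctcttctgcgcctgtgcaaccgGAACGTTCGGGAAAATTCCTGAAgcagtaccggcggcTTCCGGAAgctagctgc
Dnajb6 (chr5:29735648-29735947, plus strand): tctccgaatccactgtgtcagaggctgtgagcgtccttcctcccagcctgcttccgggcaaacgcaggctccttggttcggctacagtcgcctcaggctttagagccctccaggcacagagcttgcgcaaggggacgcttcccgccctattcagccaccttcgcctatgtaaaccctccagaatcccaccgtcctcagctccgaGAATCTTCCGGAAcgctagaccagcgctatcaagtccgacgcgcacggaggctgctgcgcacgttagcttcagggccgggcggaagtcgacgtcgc

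These windows did not all go with a higher level. Hsph1, Hspe1 and Chordc1, whose windows are shown, had folds of 2.78, 1.51 and 1.47, and Dnajb6, which also has a triple, had 0.908. Counted from 0 at the annotated start, the triple lay at 36 to 48 in Hsph1, at -89 to -72 in Hspe1, at -4 to 18 in Chordc1 and at -46 to -34 in Dnajb6, where the longer runs hold more than 3 units. Hspa1a and Hspa1b each had 1 pair, at -104 to -97, and Hspb1 had 2 pairs with a fold of 0.771. Among the 8265 tested genes with a window, 53 (0.641%) held a triple. Their median log2 ratio was -0.00, against -0.04 for those without, and 26 of the 53 lay above 0. At least 1.5-fold higher were 3 of them, or 5.66%, a share near the 4.83% of all genes tested. They were Hsph1, Hspd1 and Hspe1, of which the last 2 share 1 triple. A match of letters is a description and not a site of binding.

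**Figure D4:**
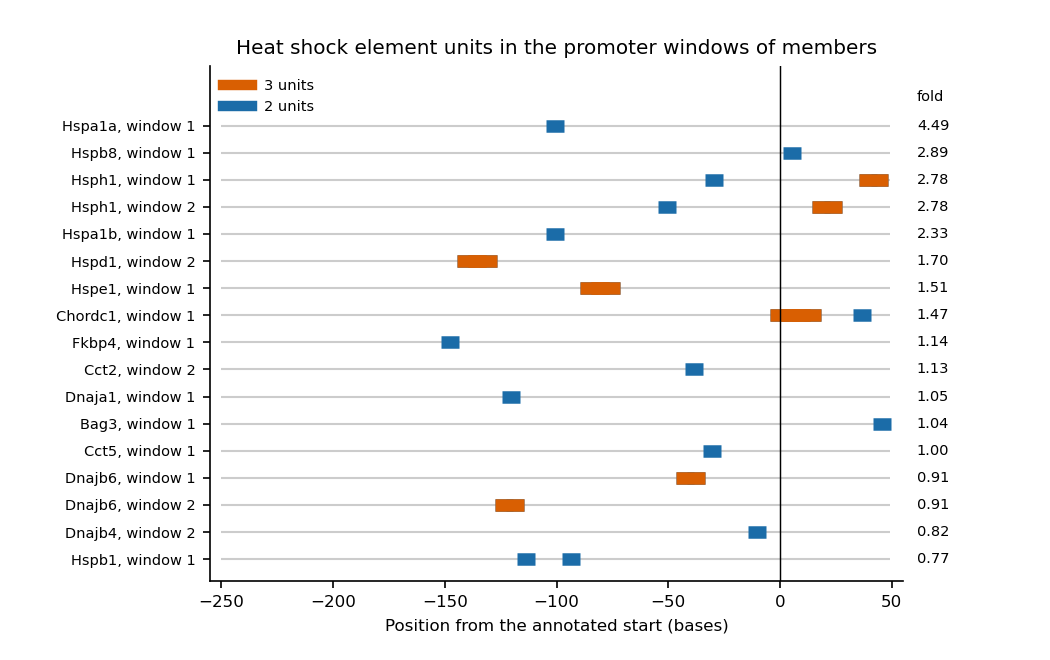
Position of heat shock element units in the promoter windows of members that hold at least a pair, from 250 bases before to 50 after the annotated start, sorted by FPKM fold (right, knockout over wild type); orange, triples; blue, pairs. Triples occur in Hsph1, Hspd1, Hspe1 and Chordc1, with folds from 1.47 to 2.78, and in Dnajb6 with 0.908. Hspd1 and Hspe1 share the same triple, and Hspa8, Hsp90aa1 and Hsf1 are among the members that had no window.

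The series asks what the loss of miR-215 does, so 3′ UTRs of the members were searched for TAGGTCA, the complement of the seed shared by miR-215 and miR-192. The longest annotated 3′ UTR of 8 of the 40 members held 1 such match, among them Hspa9, and the other 7 are shown with the match in capitals (mm10).
Hspa4 (chr11:53259885-53259910, minus strand): gttaaaaactcTAGGTCAcattctta
Hspb8 (chr5:116409113-116409138, minus strand): cttggttgcgtTAGGTCAaaggattg
Dnaja1 (chr4:40733186-40733211, plus strand): ctagcatctgtTAGGTCAtatcttgt
Dnaja2 (chr8:85538319-85538344, minus strand): aaataaggtaaTAGGTCAgtagttaa
Dnajb6 (chr5:29785807-29785832, plus strand): tctagtaatgaTAGGTCAgtgtgcta
Hsf1 (chr15:76500715-76500740, plus strand): ccaggggacccTAGGTCAagtcacca
Ahsa2 (chr11:23487957-23487982, minus strand): tctatgttgagTAGGTCAgagtaaag

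Matches were in 7 of the 36 measured members, or 19.4%, and in 7.01% of 10998 tested genes with a 3′ UTR, whose median 3′ UTR length was 1269.5 nt against 918.5 nt in the members. Measured members with a match had a median log2 ratio of 0.07 and those without had 0.18. Over all genes tested the medians were -0.01 with a match and -0.05 without. Of the 7 members at least 1.5-fold higher, Hsf1 alone had a match. Hsph1, Hspa8, Hspa1b, Hsp90aa1, Hspd1 and Hspe1 had none in these UTRs.

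The other genes of protein folding gave a different picture. Of 66 further cytosolic and mitochondrial chaperone genes, 65 were listed and 56 measured. Of these, 20 lay above 0 and 36 below, with a median log2 ratio of -0.08, which turned to 0.046 after scaling to equal sums. Fkbp5, the immunophilin FKBP51 that binds HSP90 in steroid receptor complexes, was the only one past the 1.5-fold limit. It had 28.8 FPKM in the knockout library and 3.11 FPKM in the wild-type library, a fold of 9.26 (7.54 to 11.5), which is larger than that of any measured member. Pdcl3, a CCT cofactor, was at 37.1 FPKM in the knockout library and 53.3 FPKM in the wild-type library. Cdc37l1, an HSP90 partner, was at 11.6 FPKM in the knockout library and 7.82 FPKM in the wild-type library. Hscb, a J protein of iron-sulfur cluster assembly, was at 9.78 FPKM in the knockout library and 14.3 FPKM in the wild-type library. These 3 came next in size of log2 ratio, in both directions. The most abundant, the tubulin cofactor Tbca, was at 147 FPKM in the knockout library and 192 FPKM in the wild-type library. Most of these genes thus did not show the higher level seen in Hspa8, Hsp90aa1 and Hspd1.

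The chaperones of the endoplasmic reticulum, which answer to other factors, were also higher. Of 20 genes, all measured, 18 lay above 0 and 10 were at least 1.5-fold higher, with a median log2 ratio of 0.53. Creld2 was at 53.8 FPKM in the knockout library and 21.8 FPKM in the wild-type library, and Hyou1, the HSP110 of that compartment, at 59.1 FPKM in the knockout library and 26.2 FPKM in the wild-type library. The disulfide isomerase Pdia4 was at 42.2 FPKM in the knockout library and 20.5 FPKM in the wild-type library, and P4hb, the most abundant, at 1405 FPKM in the knockout library and 1439 FPKM in the wild-type library. All but the last were at least 2-fold higher. The 31 proteasome genes, whose products break down proteins that fail to fold, had a median of -0.07, with 12 above 0 and none past the 1.5-fold limit in either direction. That median turned to 0.060 after scaling to equal sums. The median of HSF1-induced members, 0.49, thus lay near that of the chaperones of the endoplasmic reticulum and above that of the proteasome.

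Markers of other states differed between the libraries beside the chaperone genes. All 12 genes of dividing cells lay above 0, with a median log2 ratio of 0.52, 4 at least 1.5-fold higher and sums of 217 FPKM in the knockout library and 174 FPKM in the wild-type library. Mcm3 was at 11.2 FPKM in the knockout library and 5.36 FPKM in the wild-type library, and Mki67 at 9.45 FPKM in the knockout library and 5.60 FPKM in the wild-type library. Pcna, the most abundant of the 12, was at 85.3 FPKM in the knockout library and 80.5 FPKM in the wild-type library. Of 12 immediate early genes of tissue dissociation, 8 lay above 0, 4 were at least 1.5-fold higher and 1 was lower by as much, with a median of 0.30 and sums of 740.2 FPKM in the knockout library and 635.7 FPKM in the wild-type library. Fosb was at 4.04 FPKM in the knockout library and 1.52 FPKM in the wild-type library, and Atf3 at 41.9 FPKM in the knockout library and 22.7 FPKM in the wild-type library. Zfp36, the most abundant, was at 184 FPKM in the knockout library and 152 FPKM in the wild-type library, and Ier3, the lower one, at 3.02 FPKM in the knockout library and 5.23 FPKM in the wild-type library. The part of cell division, of dissociation or of RNA of muscle, stromal, endothelial, macrophage and dendritic cells in the higher chaperone levels was not tested.

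**Figure D5:**
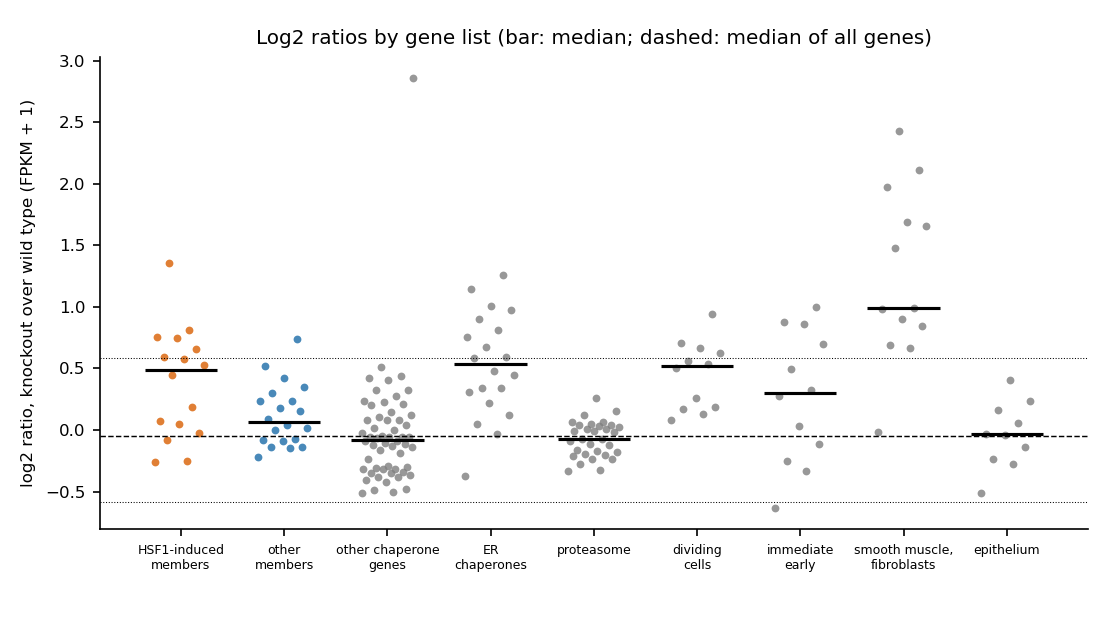
Log2 ratios, knockout over wild type (FPKM + 1), of the measured genes in each list, with the median as a bar; dashed line, median of all genes tested (-0.05); dotted lines, 1.5-fold. HSF1-induced members (median 0.49), chaperones of the endoplasmic reticulum (0.53), dividing cells (0.52) and muscle and fibroblast markers (0.99) lie above 0, while other chaperone genes (-0.08), proteasome (-0.07) and epithelium (-0.03) lie near it.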

How the data were processed

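Per the labels' protocols, RNA came from the RNeasy Mini kit (Qiagen) and was sequenced after the stranded mRNA preparation of Illumina (TruSeq). The deposited values are FPKM, as made by the authors, with 1 value for each gene in a library; the unit was inferred from the named tool and the values. Per the submitters' processing notes, TopHat2 2.0.13, Bowtie2 2.2.3, SAMtools 0.1.19, Cuffnorm 2.2.1 and the build mm10 were used. Their roles, and how strand, annotation and scaling were set, are not stated in the sources at hand.

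From these FPKM, log2 ratios were computed with 1 FPKM added, for genes that reached 1 FPKM in either library, with limits of 2-fold and 1.5-fold that are rules of size. Depth was read from protein-coding genes with 1 annotated transcript and values under 0.3 FPKM. The worth of 1 fragment over 1 kb of length, less 205 nt, was 0.0990 FPKM in the knockout library and 0.103 in the wild-type library. Fragment numbers, and from them 95% intervals, used the median annotated transcript length, and the procedure was tested on simulated data. Transcripts, coordinates counted from 1 and 3′ UTRs came from GENCODE M21 (GRCm38, that is mm10), and 22825 of 23284 symbols matched. Scripts used Python 3.11.15 with numpy 2.4.6, pandas 2.3.3, scipy 1.17.1 and matplotlib 3.10.9.

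The members and the lists were chosen with earlier results of these data known. All members were named. From the lists of other chaperones, of the endoplasmic reticulum, of dividing cells and of immediate early genes, the most abundant gene and genes among the 4 with the log2 ratio farthest from 0 were named; the remaining lists are given by counts and sums. Cryab, Hspb6, Kdr, Ier3 and overlapping neighbours were named outside this rule, after their values were seen. Of the alternatives tried, 7 concerned the added value, the filter and the scaling; the shortest and longest transcript were tried for the folds, and centring on the median of 10 equal classes of mean FPKM or of transcript length was added after seeing the data.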

Additional observations from a re-analysis of the deposited data

How the results depend on the processing

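No paired analysis was possible because each genotype has 1 library. Under 9 alternatives no member was ever at least 1.5-fold or 2-fold lower. Hspa8, Hsph1, Hsp90aa1 and Hspd1 stayed at least 1.5-fold higher in all 9, Hspe1 and Hsf1 in 8, and Hspa1b in 7 of the 8 that kept it. Adding 0.1 FPKM in place of 1 gave 2 members at least 2-fold higher, against 1, while the share of all genes was 2.95%, against 1.34%. The number at least 1.5-fold higher was 7 as reported, beside 4.83% of all genes. With 5 FPKM added it was 4, beside 1.56% of all genes, and with equal sums 10, beside 7.80%. With centring by mean FPKM, an alternative chosen after seeing the data, it was 11, beside 4.95%. The median log2 ratio of the members was 0.30 with equal sums and 0.29 with equal upper quartiles, against 0.17. That of the CCT subunits was 0.31 with equal sums, 0.30 with equal upper quartiles and 0.33 with centring by mean FPKM, against 0.18. The median of the other chaperone genes turned positive, at 0.046 with equal sums and 0.040 with equal upper quartiles, against -0.078 as reported. These settings shift all genes by construction: the median of all genes was 0.07 in both, with 886 genes at least 1.5-fold higher and 579 lower under equal upper quartiles. The median of the HSF1-induced members stayed between 0.35 and 0.62. Transcript length changed whether the counting interval held 1 for 2 members, Hspa13 and Dnajb6. Depth limits Hspa1a, Hspa1l, Hspa2, Hspb1 and Hspb8 most, and variation between animals was not measured.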

Other observations

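All genes differed slightly with level and length. The median log2 ratio of all genes tested was 0.11 in the lowest of 10 equal classes of mean FPKM, -0.16 in class 9 and -0.19 in the highest. Class 9 holds 14 members, with a median of 0.13, and the highest holds 3, with a median of 0.42. Classes 1 and 2 hold 1 and 2 members, and classes 3 and 4 hold 0. Whether the members follow the pattern with level can therefore not be read. By transcript length the median of all genes was -0.16 in the shortest class and 0.07 in the longest.

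Exons of 8 members overlap a listed gene on the other strand in the annotation, which matters where strand was not used in counting. Hspd1 and Hspe1 overlap each other. Beside Dnaja1, Smu1 was at 22.1 FPKM in the knockout library and 22.8 FPKM in the wild-type library. Beside Cct8, Usp16 was at 26.7 FPKM in the knockout library and 25.7 FPKM in the wild-type library. Beside Tcp1, Mrpl18 was at 52.6 FPKM in the knockout library and 54.5 FPKM in the wild-type library, and Acat3 at 7.37 FPKM in the knockout library and 9.09 FPKM in the wild-type library. Beside Ahsa2, Usp34 was at 8.44 FPKM in the knockout library and 6.90 FPKM in the wild-type library. The neighbours of Hspa12a and Dnajb6, Eno4 and Gm5129, stayed under 1 FPKM in both libraries.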
